A study of Brassica rapa subsp. rapa with 9 samples.

Results

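The comparison of blue light with darkness rests on 3 of the 9 arrays of a study of the swollen hypocotyl of turnip (Brassica rapa subsp. rapa, red cultivar 'Tsuda'), the storage organ of this crop. The arrays were chosen by their titles, which name blue as the exposure. The other 6 arrays compared UV-A or UV-B with darkness, 3 per light. On each blue array, RNA of organs under blue light for 24 hours was labelled with Cy3 and RNA of organs kept in darkness with Cy5. RNA came from a thin peeled surface layer, each biological replicate drew on more than 5 plants per the series' design text, and dyes were not swapped. The unit of replication is therefore a set of plants, and fewer cells of a type and less RNA per cell cannot be told apart in them.

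Plants sense blue light mainly through cryptochromes and phototropins. In leaves and seedlings, blue light is known to raise genes of the light-harvesting antenna and of flavonoid synthesis, and in red turnip cultivars anthocyanin colours the skin that light reaches. Turnip tissue also holds glucosinolates, sulphur-containing defence compounds that the enzyme myrosinase cleaves when tissue is damaged.

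Values are log2 of the light signal over the dark signal, so that a positive value means more RNA in blue light and 1 unit is a doubling. A total of 2507 probes were measured, of which 2110 carried 1 of 999 names of Arabidopsis genes, the best sequence match in the deposited annotation. No sequence of the clones is shown, and no turnip coordinates are given for them. A probe was called at a Benjamini-Hochberg adjusted p under 0.05 by limma over all probes, in a fit of all 9 arrays with a mean per light and 1 shared spread.

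The light channel lay at a median of 17.1, 28.9 and 9.85 times background on blue replicates 1, 2 and 3, and at least 97.4% of the probes were above background in each channel. Blue replicate 3 stood apart in the spread of its ratios and in background. Its log ratios had a standard deviation of 1.35 over probes, against 0.64 and 0.72 on replicates 1 and 2. On the same array, 99.3% of 135 spots without a clone were above background in the light channel, against 3.7% and 7.41% on replicates 1 and 2. Log ratios of duplicate spots correlated at 0.939, 0.601 and 0.834 on blue replicates 1, 2 and 3, and replicate 2 was the lowest of the 9 arrays. The 3 blue arrays correlated with each other at 0.379 to 0.388 across probes, which are not independent replicates. Each blue array correlated more closely with the UV-A array of its own number (0.686, 0.642 and 0.699) than with the other blue arrays.

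Blue light raised 28 probes (1.12%) and lowered 59 (2.35%) of 2507 against darkness. All 87 lay on one side of 0 on every blue array. The rises spanned 1.04 to 3.09 log2 units and the falls -3.66 to -1.04, while the median over all probes was 0.02 and the median standard error 0.32. Blue replicate 3 was the array furthest from 0 for 72 of the 87 called probes and for 61.9% of all probes. Without it, 0 probes were higher and 0 lower by limma, and 299 had an unadjusted p under 0.05, against 632 with all arrays. Without blue replicate 1 there were 8 higher and 42 lower probes, and without blue replicate 2 there were 14 and 5. The counts also moved with single arrays of the other lights, which share the estimate of the spread: leaving out UV-A replicate 1, 2 or 3 gave 9, 12 and 9 higher with 8, 14 and 14 lower probes. Leaving out UV-B replicate 1 gave 6 higher and 8 lower probes, and leaving out UV-B replicate 2 gave 20 and 36. With the replicate number as a block, which takes what same-numbered arrays share out of the spread, 168 probes were higher and 236 lower. All 87 calls were among these, and the block totals out of 2507 are the background for block counts of gene lists below. In a test of a mean against 0, differences between replicates are part of the error. The block leaves out the part that same-numbered arrays share, so its p-values and counts against darkness are less cautious. The authors' deposited processed values, fitted the same way, gave 12 higher and 6 lower probes, a share of 66.7% higher against 32.2% here.

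Among the probes that rose, peptidases and inhibitors of peptidases were the groups with the most calls. RD21, a papain-type cysteine peptidase named for its response to dehydration, rose on both of its probes. The brighter one read 3.18, 0.83 and 4.69 on blue replicates 1, 2 and 3, from normalised signals of 17179, 28848 and 43174 in blue light against 1898, 16253 and 1670 in darkness. Its mean over 3 arrays was 2.90 ± 0.59 log2 units (SE), with an adjusted p of 0.0359 by limma and 1 saturated spot in the light channel. Here and below, the SE after ± comes from limma's fit, in which all lights share the spread. It is not the scatter of the blue arrays alone, whose standard deviation on this probe was 1.95 log2 units. The second RD21 probe averaged 1.97 ± 0.46 (adjusted p = 0.0455 by limma). On both probes blue replicate 2 gave the smallest ratio and replicate 3 the largest, and light exceeded dark on all 3.

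AT4G11320, a second cysteine peptidase, rose on 3 of its 5 probes, with means of 2.06, 2.45 and 2.46. The AT4G11320 probe with a mean of 2.45 read 1.81, 1.96 and 3.58 on the 3 blue arrays, with light signals of 5013, 10246 and 10309 against dark signals of 1426, 2627 and 864. Every light signal of that probe was above every dark signal, so the groups did not overlap. Signals were not scaled between arrays, so overlap or its absence, here and below, also depends on the brightness of each array. The other 2 AT4G11320 probes averaged 1.45 and 0.47, the lower value on the brightest of them, and were not called. ATTI1, a trypsin inhibitor of Arabidopsis, rose on 3 of 6 probes (2.09, 1.79 and 1.61), and its 3 other probes had means of 0.17, 1.11 and 1.27. The ATTI1 probe with the largest rise read 2.43, 1.97 and 1.89, with light signals of 8146, 6640 and 1576 and dark signals of 1515, 1700 and 426. Light exceeded dark on each array, but the lowest light signal of that ATTI1 probe was below its highest dark signal. AT1G72290, annotated as an endopeptidase inhibitor, rose on 1 of 31 probes, its brightest (1.60 ± 0.34, adjusted p = 0.0361 by limma).

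Over the whole groups, 4 of 44 probes of peptidase inhibitors rose (9.09%, against 1.12% of all probes) and 0 fell. Of the 44, 16 were above 0 on all 3 blue arrays, a share of 36.4% against 19.7% of all probes. The median over the 44 was 0.27 log2 units. Of 85 probes for the proteasome, ubiquitin and peptidases, 5 rose and 2 fell, with a median of 0.09. These shares were 5.88% and 2.35%, against 1.12% and 2.35% of all probes. The 5 were the RD21 and AT4G11320 probes, so they came from 2 names. The 2 that fell were named after their values were seen. AT5G07030, annotated as pepsin A, fell on the brightest of 5 probes (-1.22), and 4 of the 5 had a negative mean. MAP2B, a methionine aminopeptidase that trims the first residue of proteins, fell on 1 of 3 probes (-1.41), and its other probes averaged 0.12 and, on the brightest, 0.10. The brightest member, UBQ11, which encodes ubiquitin, averaged -0.81 ± 0.32 (adjusted p = 0.153 by limma). With the replicate block, 11 inhibitor probes rose and 2 fell, and 11 proteasome and peptidase probes rose and 5 fell. Over all 2507 probes the block gave 168 rises and 236 falls.

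AT5G66040, annotated as an unknown protein, had the largest rise among named probes, with ratios of 2.80, 1.34 and 5.13. Its light signals were 5012, 4431 and 10315 against dark signals of 720, 1752 and 295, so the groups did not overlap. The mean was 3.09 ± 0.55 (adjusted p = 0.0283 by limma), a fold of 8.50. AT5G47500, a pectinesterase, an enzyme that removes methyl esters from cell wall pectin, rose by 2.74 ± 0.51 on 1 of 2 probes, with 3.03, 0.84 and 4.36 on the arrays. AT5G18840, annotated as a sugar porter, rose by 2.14 ± 0.49 on 1 of 2 probes, and there blue replicate 2 gave the largest ratio (1.30, 3.11 and 2.03). ZML1, a transcription factor with a ZIM motif, rose by 1.92 ± 0.34 and was highest on replicate 1 (3.03, 1.47 and 1.27). HIS1-3, a linker histone, rose by 1.77 ± 0.36 on 1 of 3 probes and varied little between arrays (1.73, 2.11 and 1.47). AT1G76080, a thiol-disulfide exchange protein in the annotation, rose by 1.82 ± 0.45, and AT5G53900, an unknown protein, by 1.86 ± 0.40.

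**Figure D1:**
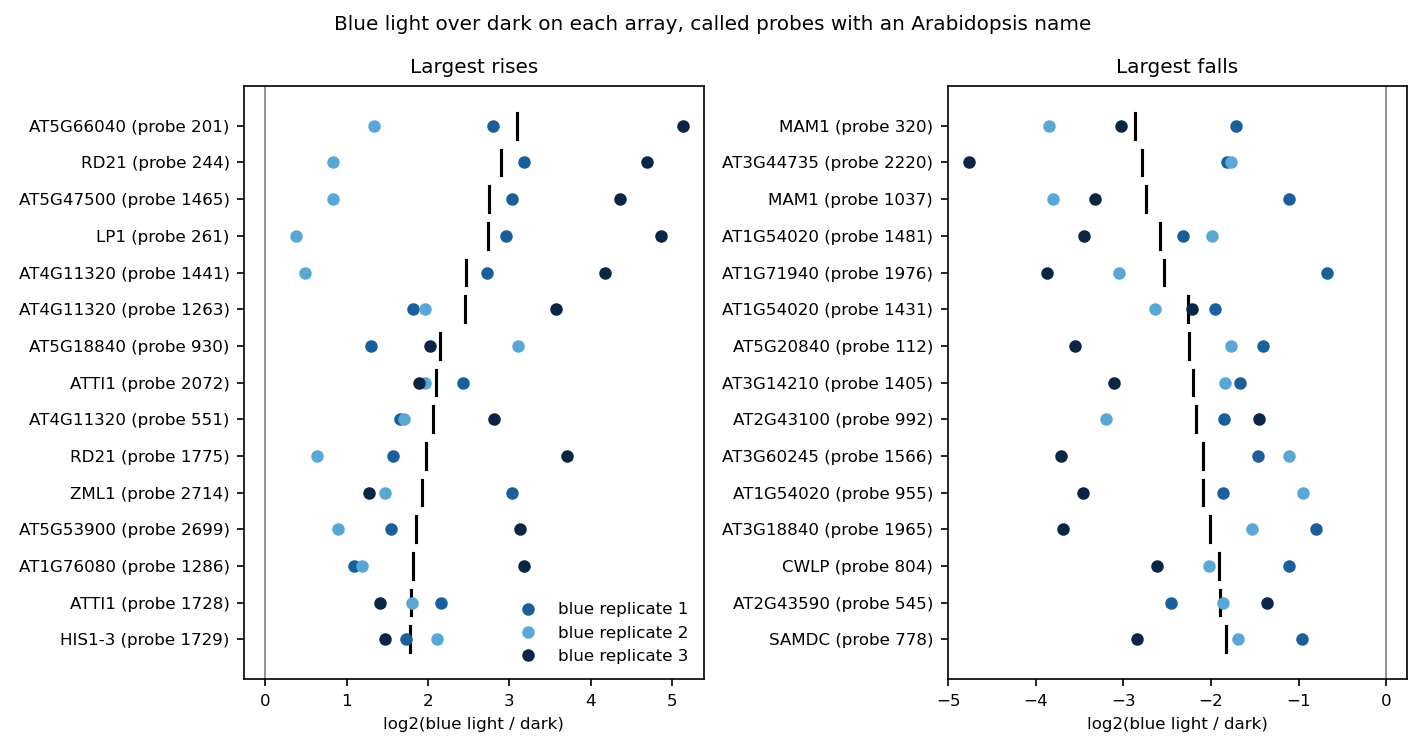
Log2 ratio of blue light over dark on each of the 3 blue arrays (points) and their mean (bar) for the 15 probes with the largest rises and the 15 with the largest falls among called probes with an Arabidopsis name. Blue replicate 2 is the lowest point for 7 of the 15 rises, such as RD21 at 0.83 and LP1 at 0.38, and replicate 3 lies furthest from 0 for 20 of the 30 probes.

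Genes for structural proteins of the ribosome were the group with the most falls. Of 165 probes with 74 names, 19 fell (11.5%, against 2.35% of all probes) and 0 rose, and the falls covered 14 names. The median was -0.59 over all 3 arrays and -0.60, -0.55 and -0.93 on blue replicates 1, 2 and 3, against medians of -0.02, 0.00 and -0.03 over all probes. On all 3 arrays 93 of the 165 were below 0 (56.4%, against 21.1% of all probes), and 6 were above 0 (3.64%). Of the 74 probes that represent a name, 41 were below 0 on all blue arrays and 3 above. Without blue replicate 3 the median was -0.55 and no ribosomal probe was called, with 55 lower and 1 higher at an unadjusted p under 0.05. With the replicate block, 56 ribosomal probes fell and 1 rose, and with the authors' processed values 1 fell and 0 rose. Over the 19 alternatives the median stayed between -0.70 and -0.47. In UV-A the median of the same 165 probes was -0.39.

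AT3G60245 had 4 called probes of 11, and 10 of the 11 had a negative mean. Its largest fall read -1.47, -1.10 and -3.71, with a mean of -2.09 ± 0.47 (adjusted p = 0.0428 by limma), from light signals of 524, 234 and 95 against dark signals of 1451, 504 and 1246. The brightest AT3G60245 probe fell by 1.76 log2 units, with -0.90, -1.66 and -2.71 on the arrays. AT1G09690 read -0.56, -1.78 and -2.83 and fell by 1.72 log2 units on average. The next 5 names lie outside the rule for named genes and were chosen after their values were seen. RPS28, a protein of the small subunit, read -1.07, -1.32 and -2.13 on the called one of its 2 probes and averaged -1.50 ± 0.27. ARP1, named Arabidopsis ribosomal protein 1, fell by 1.30 log2 units on its only probe. Both probes of AT1G74270 fell by 1.33 log2 units. AT2G27710 fell on 2 of 8 probes and had a negative mean on all 8, and AT2G34480 fell on 1 of 7 with a negative mean on all 7. The brightest ribosomal probe, AT3G09680, averaged -0.53 ± 0.28 (adjusted p = 0.254 by limma) and was below 0 on each array. Translation initiation and elongation factors, which work with the ribosome, had 0 calls among 35 probes, 6 with an unadjusted p under 0.05, and a median of 0.05. Under the replicate block 3 of them fell and 0 rose, against 236 and 168 of all 2507 probes.

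**Figure D2:**
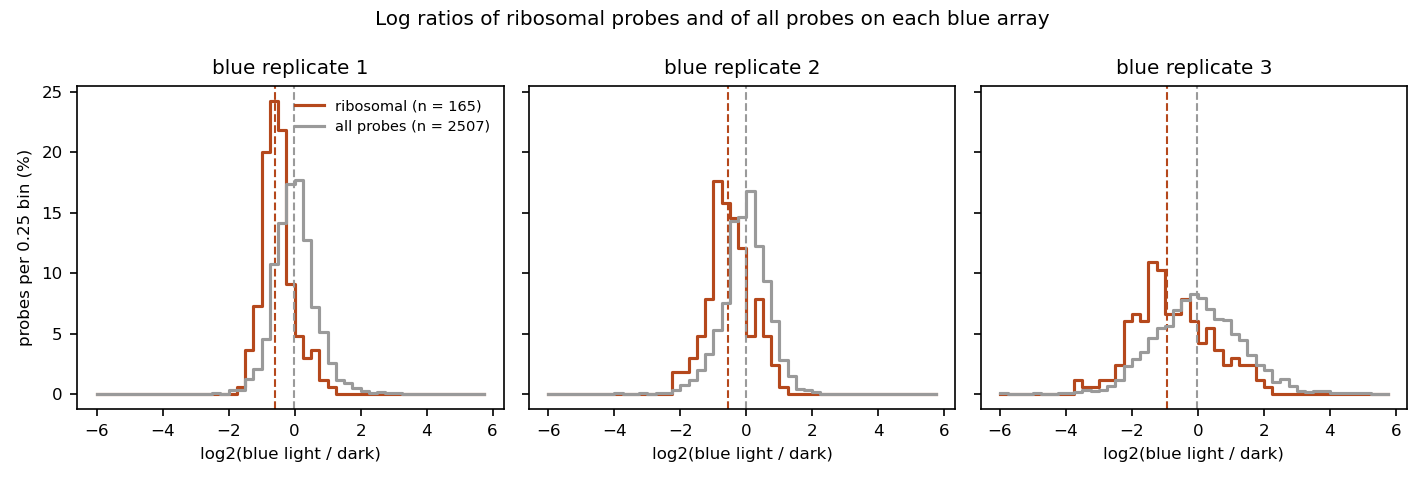
Distribution of log2(blue light / dark) for 165 ribosomal probes and for all 2507 probes on each blue array, as the percent of probes per bin, with dashed lines at the medians. The ribosomal median lies below the median of all probes on every array, at -0.60, -0.55 and -0.93.

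The largest fall of a named probe lay in glucosinolate synthesis. MAM1, the methylthioalkylmalate synthase that lengthens the side chain of methionine for aliphatic glucosinolates, fell on 2 of 3 probes. The larger fall read -1.71, -3.85 and -3.02, from light signals of 328, 227 and 417 against dark signals of 1074, 3283 and 3393. All light signals of that probe were below all dark signals. Its mean was -2.86 ± 0.60 (adjusted p = 0.0361 by limma), a fold of 7.27. The brightest MAM1 probe read -1.11, -3.81 and -3.32 and averaged -2.75 ± 0.58, and the third MAM1 probe averaged -0.89 and was not called. AT2G43100, a hydro-lyase in the annotation and counted in the group by its locus, fell by 2.17 ± 0.35 (-1.86, -3.20 and -1.45). Of the 40 probes of the group, 3 fell (7.5%, against 2.35% of all probes) and 0 rose. The median was 0.04, and 27.5% were below 0 on all blue arrays, against 21.1% of all probes. A negative mean was found on 17 of the 40, near the share of 49.1% among all probes. CYP83A1, a cytochrome P450 of the group, had a positive mean on 12 of 19 probes and no call. MAM-L, a relative of MAM1, had a negative mean on 4 of 5 probes, with a median of -0.99, none of them called, while its brightest probe averaged 0.00 ± 0.31. In the fit with the block, 5 probes of the group fell and 1 rose, against 236 and 168 of all 2507 probes. Blue replicate 3 was not the array with the largest fall on either called MAM1 probe or on AT2G43100.

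Genes that act on glucosinolates after damage had 22 probes of only 4 names. A negative mean was found on 1 of these 22 probes, against 49.1% of all probes. ESP, the epithiospecifier protein that steers the products of myrosinase towards nitriles, rose on its brightest probe, with 0.84, 1.06 and 2.24 and a mean of 1.38 ± 0.30 (adjusted p = 0.0361 by limma). Its light signals of 3781, 16024 and 10703 and dark signals of 2117, 7672 and 2260 overlapped between the groups, while light exceeded dark on each array. The other 2 ESP probes averaged 2.47, where blue replicate 2 alone read 5.15, and 0.04. MBP1, a myrosinase-binding protein, rose on 1 of 12 probes (1.24 ± 0.30), and 11 of the 12 had a positive mean. On the brightest MBP1 probe replicate 1 read 1.93 and the other arrays -0.12 and 0.21. TGG1, a myrosinase, averaged 0.21 and 0.18 on its 2 probes, neither called. In this group 2 of 22 probes rose (9.09%, against 1.12% of all probes) and 0 fell. On all blue arrays 8 were above 0 (36.4%, against 19.7% of all probes) and 0 below. The median was 0.59. The replicate block gave 6 rises and 0 falls, against 168 and 236 among all 2507 probes.

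Carboxylic ester hydrolases, a family with many copies on the array, held calls in both directions. AT1G54020 fell on 4 of 33 probes, by 1.83 to 2.59 log2 units, and 27 of its 33 probes had a negative mean. The largest of these falls read -2.32, -1.99 and -3.45, with light signals of 1452, 2446 and 1858 against dark signals of 7246, 9716 and 20285 that did not overlap them. The brightest AT1G54020 probe averaged -0.14 (adjusted p = 0.837 by limma). AT3G14210 fell on 1 of 28 probes (-2.20 ± 0.33) and rose on another (1.04 ± 0.25), while 22 of the 28 had a positive mean and the median was 0.54. It was the only name called in both directions. Of 76 probes in the family, 5 fell (6.58%, against 2.35% of all probes) and 1 rose (1.32%, against 1.12%), with a median of -0.03. Under the block 10 fell and 3 rose, against 236 and 168 of all 2507 probes.

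Lipid-binding and cell wall proteins shared the falls of 1 name. CWLP, a linker between cell wall and plasma membrane, fell on 3 of 18 probes, by 1.29 to 1.91 log2 units, and 16 of the 18 had a negative mean. Its largest fall read -1.11, -2.02 and -2.61. The brightest CWLP probe averaged -0.97 ± 0.29 (adjusted p = 0.0821 by limma). AT2G10940, annotated as lipid binding, fell by 1.80 log2 units on the brighter of its 2 probes. LP1, a lipid transfer protein, rose on 1 of 15 probes (2.96, 0.38 and 4.86), while its brightest probe read -1.30, -0.38 and -2.48 without a call. Among 60 probes for lipid binding and fatty acid synthesis, 4 fell (6.67%, against 2.35% of all probes) and 1 rose (1.67%, against 1.12%). The median was -0.47, and 45.0% were below 0 on all blue arrays, against 21.1% of all probes. Among 129 cell wall probes, 3 fell (2.33%, close to the share of all probes), all CWLP, and 1 rose (0.78%), the pectinesterase AT5G47500. A negative mean was found on 71 of the 129, against 49.1% of all probes, with a median of -0.09. With the replicate block, 14 of the 60 lipid probes and 14 of the 129 cell wall probes fell, against 236 of all 2507.

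Single falls came from other groups. AT2G43590, a chitin-binding protein annotated as a chitinase, fell by 1.89 log2 units on 1 of 3 probes, and blue replicate 1 was the furthest from 0 (-2.46, -1.86 and -1.36). SAMDC, which makes the aminopropyl donor for polyamines, fell by 1.83 on 1 of 8 probes, and its brightest probe averaged -0.06. AT5G58390, a peroxidase, fell by 1.38 on its brightest of 3 probes. Of 120 probes for kinases, phosphatases and GTPases, 2 fell (1.67%, against 2.35% of all probes) and 0 rose. With the replicate block 5 of them fell and 6 rose, against 236 and 168 of all 2507 probes. AT3G11410, a protein phosphatase of type 2C, fell on 1 of 2 probes (-1.17), and the other averaged 0.97. AT1G72710, a casein kinase, fell on 1 of 3 (-1.34), and the others averaged 0.13 and 0.26. AT5G20840, a phosphoinositide phosphatase, fell by 2.25 on 1 of 9 probes from dim light signals of 82, 141 and 89 against 219, 481 and 1048 in darkness. AT3G44735, annotated as an unknown protein, fell by 2.79 log2 units on its only probe. AT1G71940, another unknown protein, fell by 2.53 on 1 of 3 probes, and the others averaged 0.20 and 0.41. Probes annotated as unknown proteins numbered 446, of which 3 rose (0.67%, against 1.12% of all probes) and 11 fell (2.47%, against 2.35%).

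Genes of photosynthesis were few on the array. LHCB2.1, a chlorophyll-binding protein of the light-harvesting antenna, rose on its brighter probe, with 1.00, 1.24 and 1.48 on the 3 arrays. Its light signals were 2316, 6495 and 2947 and its dark signals 1156, 2751 and 1059, each array showing more in light although the groups overlapped. The mean was 1.24 ± 0.30 (adjusted p = 0.0494 by limma), and the second LHCB2.1 probe averaged 0.25. Among the 10 probes of this group, 1 rose (10%, against 1.12% of all probes) and 0 fell. AT5G38420, a small subunit of the carbon-fixing enzyme, read -1.22, 0.99 and -1.67, on both sides of 0. RCA, which activates that enzyme, averaged -0.22 ± 0.26, and ABA1, a zeaxanthin epoxidase, -0.24 ± 0.29. LUT2, a lycopene cyclase, averaged 0.26, CLPR2, a plastid protease subunit, 0.10, AT5G26030, a ferrochelatase of haem synthesis, -0.51, and ATCLH1, a chlorophyllase, -0.69, all without a call.

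Light receptors and light signalling genes gave no call among 5 probes. PHOT1, a phototropin and so a blue light receptor, read -0.20, -0.70 and -0.46 and averaged -0.45 ± 0.32 (adjusted p = 0.392 by limma). UVR8, the UV-B receptor, averaged 0.19, SRR1, a red light signalling protein, 0.35, and BIG, needed for normal light control of antenna genes, 0.53. At an unadjusted p under 0.05 the count in this group was also 0.

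Flavonoid and phenylpropanoid genes were above 0 in most cases without passing the test. CHS, chalcone synthase, the first enzyme of flavonoid synthesis, read 0.56, 0.87 and 2.81 on its brightest probe, from light signals of 34078, 33431 and 32212 against dark signals of 23064, 18316 and 4608. Light and dark signals of that CHS probe did not overlap, and its mean was 1.41 ± 0.45 (adjusted p = 0.095 by limma). The 6 other CHS probes averaged 2.50, 1.11, 0.99, 0.89, 0.25 and -0.84. CYP98A3, a hydroxylase of the phenylpropanoid pathway, read 0.43, 1.18 and 2.11 (1.24 ± 0.36, adjusted p = 0.0734 by limma). PAL1, the entry enzyme of that pathway, averaged 0.34 ± 0.27. The later enzymes of anthocyanin synthesis averaged 0.26 for F3H, 0.34 for DFR and 0.39 for LDOX, and ATGSTF12, which carries anthocyanin to the vacuole, averaged 0.13. DFR and LDOX were highest on replicate 3 (1.87 and 1.56) and below 0 on replicate 2. ATOMT1 and AT4G34050, methyltransferases, averaged 0.21 and 0.34, and DHS1, of the shikimate pathway, 0.32. Of the 19 probes, 8 were above 0 on all blue arrays (42.1%, against 19.7% of all probes) and 2 below, with a median of 0.34. With the replicate block 5 rose and 1 fell. There the brightest CHS probe had an adjusted p of 0.012 and CYP98A3 one of 0.0162 by limma. The block leaves out of the error what same-numbered arrays share, so these p-values are less cautious than those above.

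Dehydration, sugar and other groups added few calls. Over all probes, 1.12% rose and 2.35% fell. Among 20 probes for dehydration and cold, 2 rose (10%), both RD21, and 0 fell. The brightest member, ATHVA22A, averaged 0.11 ± 0.26. Among 33 sugar and starch probes, 3 rose (9.09%) and 0 fell. The rises were the porter AT5G18840 and 2 of the 11 probes of AT3G57520, a glycosyl hydrolase in the annotation (1.48 and 1.47). Its brightest probe averaged 0.60. AT5G18840 was also the only call among 51 membrane transport probes (1.96%). Of 86 probes for oxidative stress 1 rose, AT1G76080, and 1 fell, AT5G58390 (1.16% each way). Of 38 probes for transcription factors 1 rose, ZML1 (2.63%), and of 28 defence probes 1 fell, AT2G43590 (3.57%). Glycolysis and central carbon (89 probes), the cytoskeleton (44) and dark-induced and senescence genes (38) had 0 calls, with medians of -0.17, 0.01 and 0.39. With the replicate block, glycolysis had 3 rises and 3 falls, the cytoskeleton 1 and 4, and dark-induced genes 4 and 0. The block also gave 4 rises and 2 falls for dehydration and cold, 5 and 6 for oxidative stress and 3 and 3 for transcription factors. For defence it gave 2 and 3, and for transport 3 and 0. Over all 2507 probes it gave 168 rises and 236 falls. DRM1, a dormancy-associated gene that is the brightest of the dark-induced group, read 0.30, 1.53 and 0.44, with 2 of 6 light spots saturated. MT2A, a metal-binding metallothionein outside these groups and outside the rule for named genes, had a positive mean on all 8 probes and rose on 1 (1.35).

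**Figure D3:**
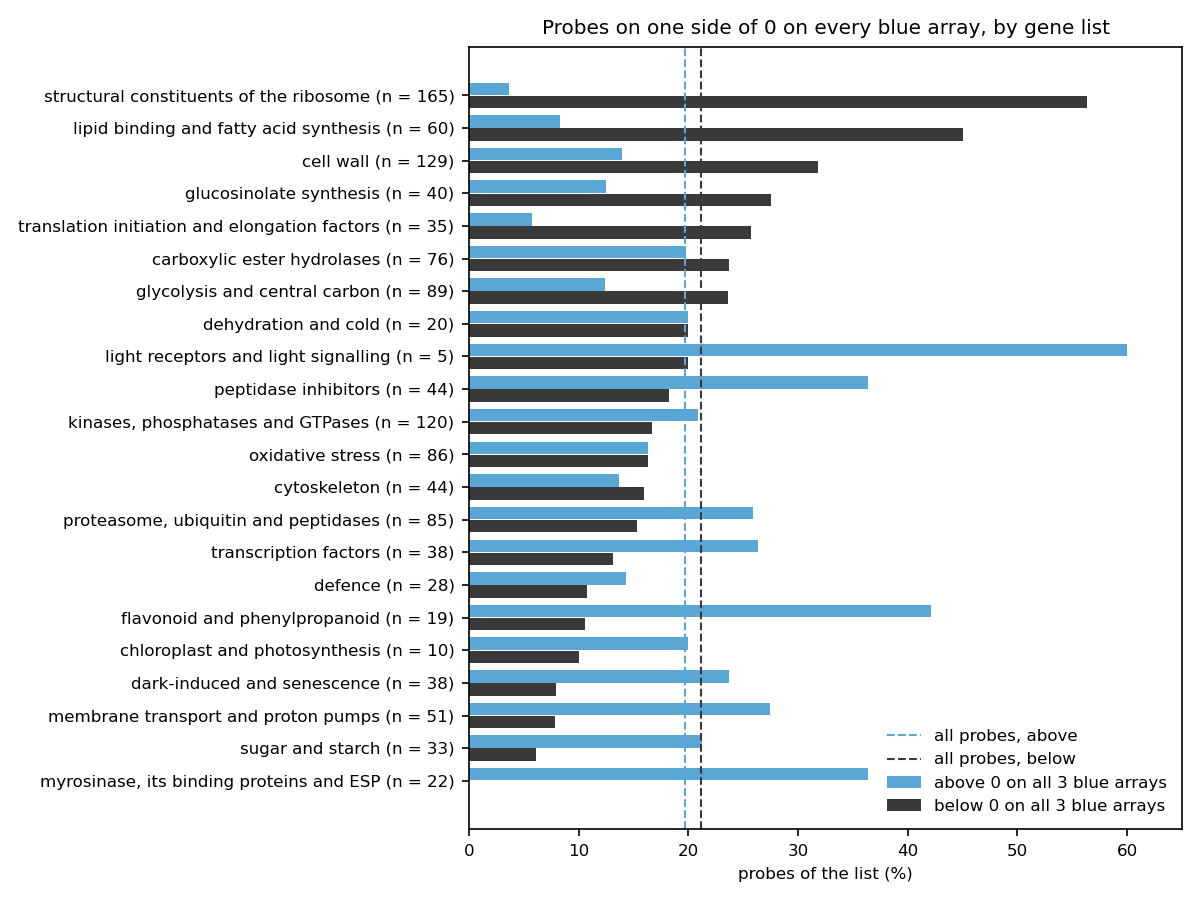
Percent of the probes of each gene list that were above 0 (light bars) or below 0 (dark bars) on all 3 blue arrays, with dashed lines at the shares over all probes, 19.7% and 21.1%. Ribosomal probes reach 56.4% below, and the myrosinase group 36.4% above with 0 below.

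Markers of other tissues were represented by 6 names. Besides LHCB2.1, none was called. ATPP2-A14, of a phloem lectin family, averaged 0.97, CER3, of epidermal wax synthesis, 0.49, PRXR1, a peroxidase, 0.26 on its brightest probe, and TGG1 and AT5G38420 0.21 and -0.63. The part of these tissues in the results was not tested.

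Probes that share a name often disagreed. Of 352 names with more than 1 probe, 157 had all their probes on the same side of 0, and of the 86 names with 5 or more probes, 16 did. Over these 86 names the standard deviation between probes of a name had a median of 0.52 log2 units, against a median standard error of 0.34. A call fell on 40 names with more than 1 probe. In 13 of them 2 or more probes were called, and in 15 the brightest probe was. The 230 uncalled probes of these names lay on the side of the call in 162 cases and on the other side in 68. ATTI1, AT4G11320 and MT2A on the upper side, and AT3G18840, AT2G27710 and AT2G34480 on the lower, had every probe on the side of the call. LP1, AT1G72290 and AT5G42100 did not, and AT5G42100 had 1 probe that rose (1.56) with 3 of 5 below 0. Whether probes of a name are pieces of 1 turnip gene or of several close copies cannot be told from the annotation.

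**Figure D4:**
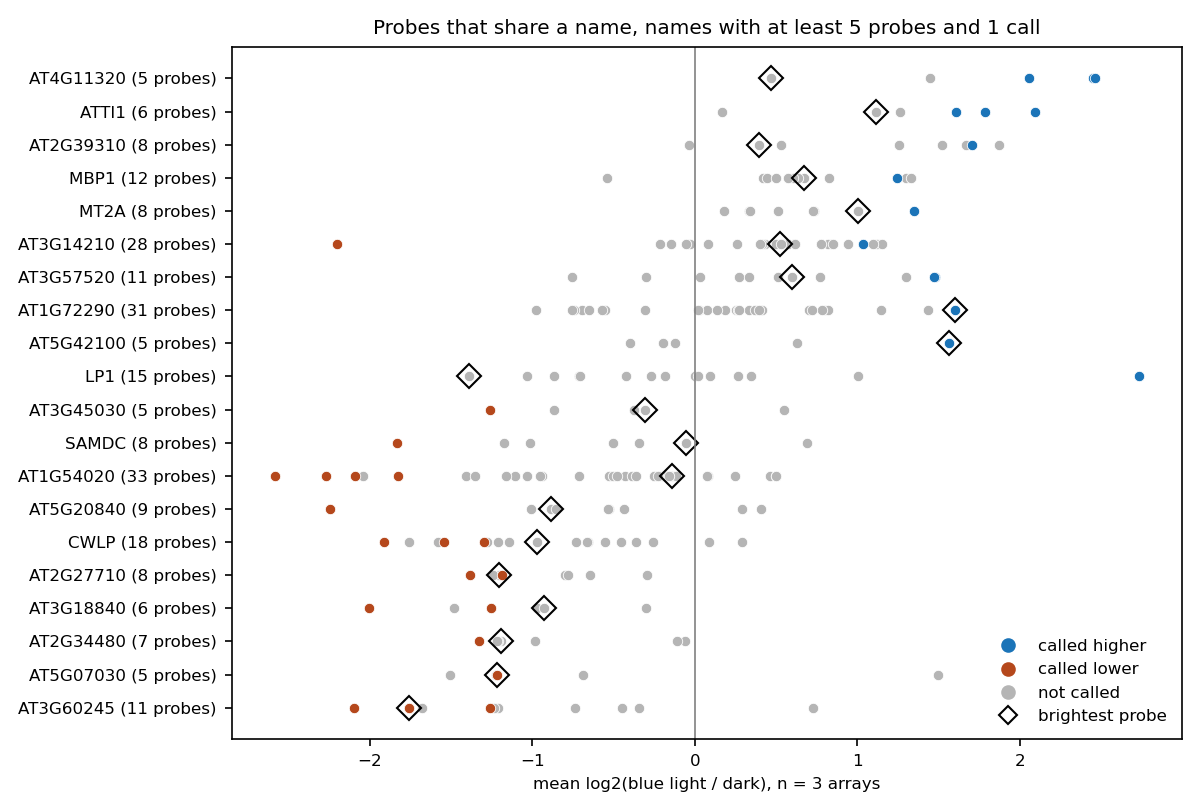
Mean log2(blue light / dark) over 3 arrays of every probe of the 20 names with at least 5 probes and at least 1 call, with called probes coloured and the brightest probe of a name framed. AT3G14210 has its 1 fall at -2.20 far from its other probes, and LP1 spans -1.39 to 2.73.

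No probe of 2507 (0.0%) differed between blue light and UV-A by limma. At an unadjusted p under 0.05 there were 80, the smallest adjusted p was 0.952, and the median standard error of the difference was 0.46. Among the 46 called probes named here, 4 had an unadjusted p under 0.05 in this test. The largest such difference was on the second RD21 probe, with 1.97 in blue light and -0.04 in UV-A, a difference of 2.01 ± 0.65 (adjusted p = 0.952 by limma). MAM1 averaged -2.86 and -2.75 in blue light, against -3.36 and -3.40 in UV-A on the same probes. CHS on its brightest probe averaged 1.41 in blue light and 1.84 in UV-A. The p-values in this paragraph so far treat same-numbered arrays as unpaired. In a difference between lights, the replicate block takes out of the error what same-numbered arrays share. With it, 0 probes were called in blue light minus UV-A and 180 had an unadjusted p under 0.05. The smallest adjusted p was then 0.365 by limma.

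Blue light and UV-B differed on many probes, with 258 higher in blue light (10.3%) and 202 lower (8.06%). With the replicate block, 391 probes were higher and 332 lower, and the values below are from the fit without it. This comparison shares its blue arrays with the one against darkness. LP1 on its called probe averaged 2.73 in blue light and -1.33 in UV-B, a difference of 4.06 ± 0.91 (adjusted p = 0.0127 by limma). The largest RD21 and ATTI1 rises were 3.32 and 2.62 log2 units above their UV-B values, and the pectinesterase AT5G47500 was 3.41 above. By contrast, both called MAM1 probes averaged -2.86 and -2.75 in blue light and -3.08 and -2.59 in UV-B, without a called difference. Of the 165 ribosomal probes, 28 were lower and 4 higher in blue light than in UV-B. The median of the 165 was -0.59 in blue light, -0.39 in UV-A and 0.15 in UV-B. Of the 76 carboxylic ester hydrolase probes, 32 were higher in blue light than in UV-B and 0 lower.

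The largest differences between these lights came from probes without a call in blue light. AT2G01520, an unknown protein, read 0.73, -0.09 and 1.33 on its most different probe in blue light, against -5.31, -3.76 and -5.69 in UV-B. Of the 6 light spots of that probe on the blue arrays 2 were saturated, and on the brightest AT2G01520 probe all 6 were, so that its value in blue light is a lower bound. PR4, a pathogenesis-related protein, read 0.90, 0.19 and -0.14 in blue light and 3.85, 3.79 and 4.25 in UV-B. ATCDC5, a DNA-binding protein, averaged 0.71 in blue light and 4.51 in UV-B. In each case the 2 sets of arrays did not overlap, which was a condition for picking these probes and so not a result.

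**Figure D5:**
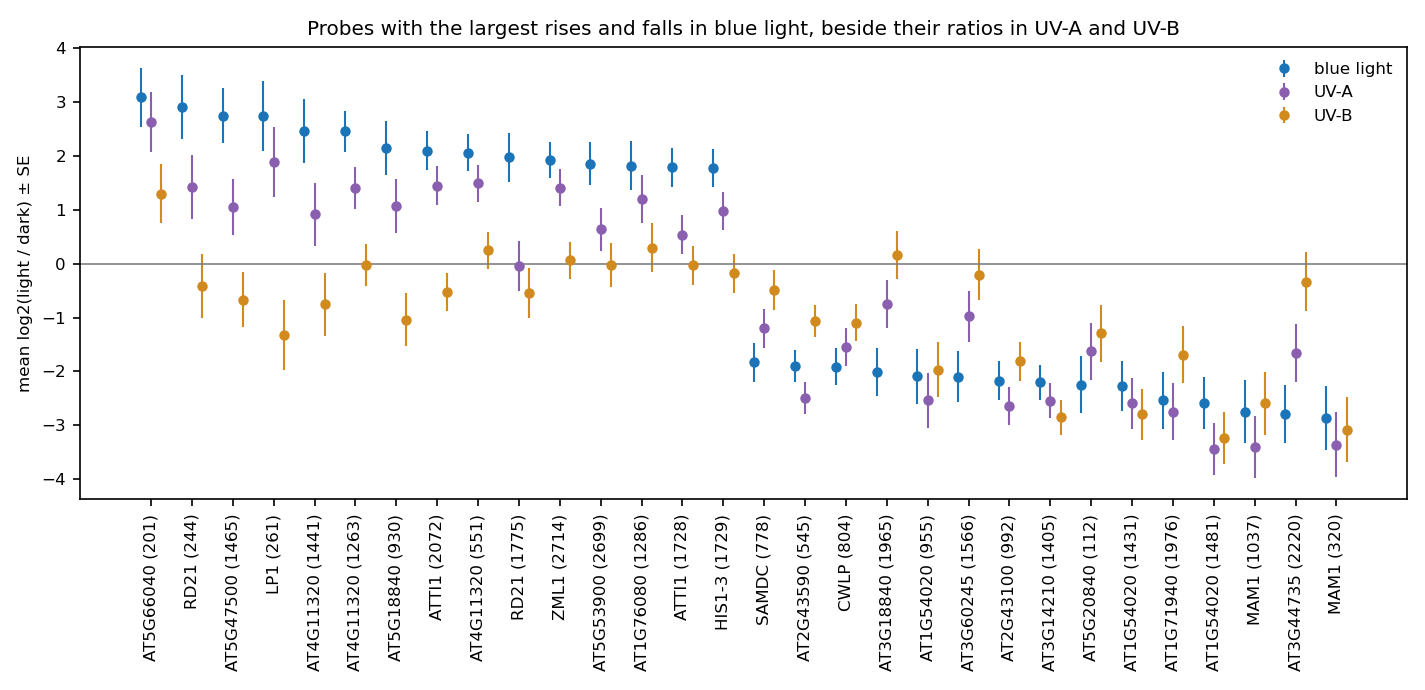
Mean log2(light / dark) ± SE of the 15 probes with the largest rises and the 15 with the largest falls in blue light. UV-A and UV-B are beside them, with 3 arrays per light. The SE is from limma's spread shared by all lights, so for a given probe it is the same in each light. The UV-B means of the rises are at or below 0.30 except for AT5G66040 (1.30). The falls lie below 0 in all 3 lights except for AT3G18840, at 0.16 in UV-B.

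The remaining 11 called probes had no Arabidopsis name: 8 carried names from other organisms, 2 had no match and 1 had no name. The largest of all falls, -3.66 ± 0.82, and a rise of 2.97 ± 0.51 were among the 8. The fall read -1.11, -4.30 and -5.58 and the rise 3.45, 1.27 and 4.20 on blue replicates 1, 2 and 3. Their genes stay unnamed here.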

How the data were processed

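Per the labels, the arrays were spotted with cDNA clones and hybridised with samples tagged by a dendrimer kit, light in Cy3 and dark in Cy5. The authors deposited foreground and background intensity values of both channels for 6272 spots per array, and flagged each spot with a 0 or 1, a score without an explanation in the sources used here. Only the 5300 spots marked 1 entered the fit. Processed log2 values were deposited too, which correlated at -0.937 to -0.854 with log2(light/dark) of the same blue arrays, so they run as dark over light, opposite to the ratios here. Their sign was turned. Their column means are 0. How they were normalised, and which scanner and image software were used, is not given in the sources.

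From the intensities, background was corrected by normexp (offset 50) and ratios were normalised by loess within each array in limma 3.58.1 (R 4.3.3), and spots of a probe were averaged. Signals given per array are these normalised channel values, which were not scaled between arrays. A filter (1.5 times background in either channel on 3 arrays) removed 0 probes. One model over 9 arrays held a mean per light with a shared spread, tested two-sided with eBayes. The number of arrays limits the precision. Dark arrays in both dyes, made to correct dye bias per the series' design text, are not analysed here: a ratio of light to dark keeps the dye bias of its probe, and a difference between lights does not. Groups came from the titles, since the description names blue for every sample. Whether same-numbered arrays share a dark sample is not given. Deviations from the group means correlated at 0.105 to 0.622 for every same-numbered pair of arrays, so the number was treated as pairing and used as a block in an alternative.

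Members and gene lists, which are patterns on the deposited names, were chosen with earlier results of these data known. Named genes are the 15 largest rises and falls among called probes with a name and all blue arrays on one side of 0, up to 4 called members and the brightest member of each list, every photosynthesis, light receptor, flavonoid and phenylpropanoid name, and the 5 largest differences in each direction between blue light and another light. The brightest probe represents a name. MT2A, AT5G42100, AT2G27710 and other names marked as chosen after their values were seen lie outside this rule. Only 7 of 999 names equal a symbol in the turnip gene table, so no coordinates are given. Figures used Python 3.11.15 and matplotlib 3.10.9.

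Alternatives were plain background subtraction, no correction, median centring, print-tip loess, all spots, a stricter filter (2 times background), the authors' values, the replicate block, arrays of the compared lights alone, each array left out, and array quality weights, which were added after seeing the data, as were the recomputed lists.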

Additional observations from a re-analysis of the deposited data

Results flagged for a closer look

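Several rises in blue light differed from UV-B by limma's test of the difference itself (adjusted p under 0.05), in which a dye bias common to the arrays cancels. The rises and falls in this paragraph were picked by their values on the same blue arrays, which enter both tests. A difference from UV-B is therefore not separate support for a change against darkness. In blue light minus UV-B, the called LP1 probe differed by 4.06 log2 units and the pectinesterase AT5G47500 by 3.41. The cysteine peptidases followed, with 3.32 and 2.52 on the RD21 probes and 3.22, 2.48 and 1.81 on the AT4G11320 probes. The sugar porter AT5G18840 differed by 3.18, the trypsin inhibitor ATTI1 by 2.62 and 1.82, and the myrosinase-binding protein MBP1 by 2.33. HIS1-3 differed by 1.95, AT5G53900 by 1.88 and ZML1 by 1.86. Falls in blue light that differed from UV-B had differences of -2.45 for AT3G44735, -2.17 for AT3G18840, -1.68 and -1.63 for the ribosomal AT3G60245 and -1.33 for the phosphatase AT3G11410.

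Among probes not called in blue light, the differences were 5.58, 5.05, 5.0 and 4.70 on AT2G01520 and 4.73 on the peroxidase PRXR1. Of 6 light spots per probe on the blue arrays, 2, 2, 6 and 3 were saturated on these AT2G01520 probes and 2 on the PRXR1 probe, so the differences may be larger than measured, and the one of 5.0 is a lower bound. They were -3.94 on ACO1, -3.93 on the hydro-lyase AT4G13430, -3.92 on the chitinase ATHCHIB, -3.80 on ATCDC5 and -3.64 on PR4. Single blue arrays of ACO1 read -0.94, 0.14 and -4.90.

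Spots without a clone, which no comparison uses, were above background in the light channel for 99.3% of 135 spots on blue replicate 3, against 3.7% and 7.41% on blue replicates 1 and 2. In the dark channel the shares were 94.8%, against 4.44% and 7.41%. The part of this background in the results was not tested.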

How the results depend on the processing

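The counts against darkness moved with many settings, and the cause was not tested. Against 28 higher and 59 lower probes, the authors' processed values gave 12 and 6, the replicate block 168 and 236, and the blue arrays alone 8 and 12. Plain background subtraction gave 30 lower probes, median centring 38, and array quality weights 44 higher. Leaving out single arrays gave 0 to 31 higher and 0 to 71 lower. For blue light minus UV-A the count was 0 under all 19 alternatives, with 43 to 202 probes at an unadjusted p under 0.05. For blue light minus UV-B, 460 probes became 723 with the block, 692 with array quality weights and 293 with those lights alone, and 218 to 460 with an array left out. All 46 called probes named here kept their direction under each alternative fit that included them. Their blue arrays all lay on one side of 0, so this was fixed in advance wherever the same ratios were reused. Such fits were the block, the quality weights, the strict filter, the lights alone and each array left out. Only changes of background correction, normalisation, spots used or processed values could have reversed a direction. The block, which leaves the blue means unchanged and takes shared variation out of the error, kept all 46 calls. The authors' processed values kept 10 and the fit without blue replicate 3 kept 0. Averaging all probes of a name moved 22 of them by more than their replicate spread, left 15 within it and reversed 2: LP1 (-0.074) and the fall of AT3G14210 (0.44). The strict filter left 2290 probes. With 3 arrays per light, no change against darkness smaller than 1.04 log2 units was called.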
